A study of Citrus trifoliata with 6 samples.

Results

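The genes described here are the exocytosis and membrane trafficking genes of *Poncirus trifoliata* (trifoliate orange, a citrus rootstock), read from lateral roots with or without the arbuscular mycorrhizal (AM) fungus *Glomus versiforme*. Of the 22589 genes with values in the deposited tables, 99 were members. The best protein match of 98 of them, as listed in the tables, carries the words exocyst, Exo70, syntaxin, SNARE, vesicle-associated membrane protein, SNAP, synaptotagmin, vacuolar protein sorting, clathrin, coatomer, SEC1 or dynamin. SEC1 was matched by its letters, so it also took in the 2 genes named Sec14 and the gene named Sec15 (Cs6g02470). The remaining member, Cs3g16120, was added by its identifier. Its best protein match reads only "predicted protein", the KEGG column of the tables names it exocyst complex component 7 (the Exo70 subunit), and the study calls it *PtrExo70I*. The rule thus uses names and no read counts, but the study already lists *Exo70I* among the genes raised in these libraries, so its level is not independent evidence.

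The Gv group held 3 RNA-seq libraries from roots of seedlings given 50 g of inoculum with about 3000 spores of *G. versiforme* (BGC NM03C) per pot. The control group held 3 libraries from seedlings that were not inoculated. All plants were grown 8 to a pot in sterile quartz sand under nutrient solution with 20 µM phosphorus, and the roots were harvested 3 months after inoculation. The libraries are biological replicates, and by the study's methods each pooled the roots of several plants taken from different pots, so p-values measure the spread between such pools and not between plants. Each library is bulk root, in which colonized and uncolonized cells are mixed, so more cells of a type and more RNA per cell cannot be told apart.

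In eukaryotic cells, coat proteins such as clathrin and the coatomer bend membrane into vesicles, dynamins help to pinch them off, and vacuolar protein sorting (VPS) complexes direct cargo to the vacuole. A vesicle bound for the plasma membrane is first held there by the exocyst, a tethering complex of several subunits, and then fuses when SNARE proteins on both membranes zip together with the help of Sec1/Munc18 (SM) proteins. When an AM fungus forms an arbuscule, the root cell lays down a large new membrane around the branches by exocytosis. In *Medicago truncatula*, an Exo70 subunit named EXO70I is needed for that membrane to develop around fine branches, and exocytotic R-SNAREs of the VAMP721 group are needed for arbuscules to form.

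The members fell into 10 roles by their names. There were 21 Q-SNAREs, 18 VPS proteins, 18 clathrin and clathrin assembly or binding proteins, 9 exocyst subunits, 9 dynamins, 7 coatomer subunits, 7 synaptotagmins, 5 SM proteins, 3 R-SNAREs and 2 Sec14 proteins. A name can mislead, as VPS72 (orange1.1t01091) is in yeast a subunit of a chromatin remodelling complex and ARC5 (orange1.1t02677) is a dynamin of chloroplast division. Reads were found in every library for 86 of the 99 members. The filter on low counts, which kept 16281 of all genes, kept 79 of them. The 20 members left out carried at most 86 reads summed over a group and are described separately.

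Each library had between 4.34 M and 4.71 M reads on genes (M, 1e6). Arbuscule markers (Cs7g29450, Cs9g18560 and Cs5g08370) summed to 174, 191 and 1126 RPKM in Gv libraries 1, 2 and 3, against 0.269, 0.129 and 0 RPKM in control libraries 1, 2 and 3. RPKM is reads per kilobase of listed gene length and per M reads. The study reports these marker genes as raised in these same libraries, so their difference between the groups is not independent evidence. All 5 root marker genes (Casparian strip and scarecrow-like genes) had reads in every library. They summed to between 19.7 and 35.4 RPKM in Gv and between 20.9 and 28.3 RPKM in the controls. Most of this came from the scarecrow-like genes Cs5g10360 and Cs7g02550, averaging 5.01 and 17.7 RPKM in Gv, against 3.99 and 14 RPKM in the controls. The Casparian strip genes Cs6g14190, Cs6g21500 and Cs8g14760 had few reads. They averaged 1.22, 0.484 and 1.85 RPKM in Gv, against 1.83, 1.4 and 2.76 RPKM in the controls. The groups overlapped in each of these genes. Shoot-type genes (8 photosynthesis genes) summed to between 102 and 144 RPKM in Gv and between 111 and 126 RPKM in the controls. Most of this came from 1 gene, the ribulose bisphosphate carboxylase small chain Cs4g03580. It had between 90.8 and 137 RPKM in Gv and between 99.6 and 118 RPKM in the controls. The others were low, and some varied between libraries, as Cs2g19680 did from 1.05 to 10.2 RPKM. Libraries that share the number 3 departed together from those numbered 1 and 2, as described with the genes it touches.

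Most of the tested members differed little between Gv and control roots, and 1 of them, *Exo70I*, stood far outside the rest. Some members with too few reads for the test, such as Cs2g17770, also had large fitted changes and are described separately. Of the 79 members tested, 78 had a log2 fold change (log2FC, Gv over control) between -0.37 and 0.42, and that of *Exo70I* was 8.39. It was the only tested member with a log2FC of at least 1 in size, as 3.75% of all genes tested had. To be called, a gene needed such a log2FC and an adjusted p under 0.05. The edgeR quasi-likelihood test called 0 of the 79 members and 0 of the 16281 genes (0% of the genes tested). At an unadjusted p under 0.05 it had 1 member, *Exo70I*, and 744 genes (4.57%). With the replicate number as a block, edgeR called *Exo70I* as the only one of the 79 members (1.27%), where it called 162 genes in all (0.995%), of which 156 were higher (0.958%) and 6 lower (0.0369%). At an unadjusted p under 0.05 that fit had 2 members, *Exo70I* and Cs2g06750, and 9.00% of all genes. DESeq2 called 0 of the members and 193 genes (1.19%). It had 0 members and 4.40% of genes at an unadjusted p under 0.05, and gave no p for *Exo70I*. *Exo70I* passed the filter on low counts only through its Gv reads. Its tests and calls are thus a description and not independent evidence.

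*Exo70I* is described first, since it is the one tested member with a large change. Exo70 subunits bind the plasma membrane lipids on which the exocyst docks, and plants carry many copies of the gene. Cs3g16120 had 31, 43 and 373 reads in Gv libraries 1, 2 and 3, against 1, 0 and 0 reads in the controls. Every Gv library was above every control, and Gv 3 alone carried most of the Gv reads. In RPKM these were 3.24, 4.27 and 39.4 in Gv, a mean of 15.6 ± 20.6 (SD, n = 3), and 0.102, 0 and 0 in the controls. The reads covered 46.8%, 56.8% and 94.3% of the gene in the Gv libraries, against 2.25%, 0% and 0% in the controls. The single control read is under the floor of 3 counts over a group, so expression in the controls was not detectable at this depth.

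The log2FC of *Exo70I* was 8.39 (standard error, SE, 1.74, 95% interval 4.21 to 12.56), and edgeR gave an adjusted p of 0.371. With the replicate block it was 8.35 (SE 0.66) with an adjusted p of 0.00796. Without Gv library 3 the value was 6.36 and the adjusted p 0.0368, in a fit that called 69 genes (0.416%). Without both libraries numbered 3, an alternative chosen after the data were seen, it was 5.89 with an adjusted p of 0.0171, and 205 genes were called (1.25%). In the other edgeR alternatives the adjusted p ranged from 0.278 to 1.00, so the call depended on the fit, while the direction was the same in every fit run. As almost no control reads exist, the size of the fitted change depends on the fit's handling of zeros.

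*Exo70I* was highest in the Gv library with the most arbuscule marker RNA. Gv 3 was 10.5 times the mean of Gv 1 and Gv 2 for *Exo70I* and 6.17 times that mean for the summed markers. Whether the share of colonized cells accounts for this was not tested.

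The study cloned the promoter of *Exo70I* and placed it before a GUS reporter in *M. truncatula* roots. With the fungus *Rhizophagus irregularis*, it reported arbuscule-enriched activity, and it found a CTTC or CTTC-like motif in the promoter. The primers are shown because no other sequence of the gene was at hand. They run 5′ to 3′ and are the study's designed oligos, with no part set in capitals.
pPtrExo70F: tcgccaggtaataagctaagtgaatcc
pPtrExo70R: gattgaacttgattgatactgaatgtatg
The forward primer is 27 bases long and the reverse primer 29.

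**Figure D1:**
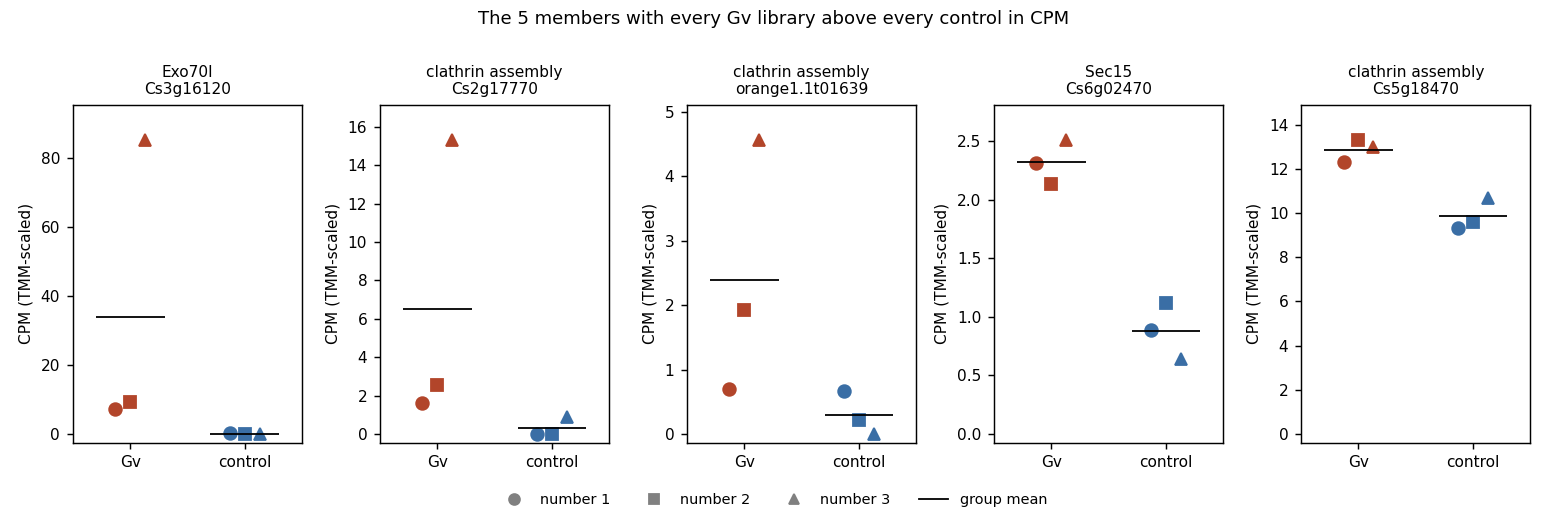
Reads per M reads (CPM, TMM-scaled) of the 5 members in which every Gv library was above every control, with Gv at left. Circles, squares and triangles are the libraries numbered 1, 2 and 3, lines are group means, and each panel has its own scale. In *Exo70I* and Cs2g17770 Gv 3 lies far above the other Gv libraries, and in the Sec15 gene Cs6g02470 the Gv libraries lie close together.

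None of the 6 other exocyst genes tested passed the test. The 8 exocyst genes besides *Exo70I* summed to 43.2, 41.0 and 45.7 RPKM in Gv libraries 1, 2 and 3, against 43.9, 40.6 and 46.9 RPKM in the controls. With *Exo70I* the exocyst sum was 46.5, 45.2 and 85.1 RPKM in Gv, against 44.0, 40.6 and 46.9 RPKM in the controls. The sums with *Exo70I* part from the controls mainly in Gv 3.

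Among the exocyst members, orange1.1t00418 is named as component 5 (Sec10, one of the core subunits). It had 536, 492 and 561 reads in Gv and 573, 513 and 496 reads in the controls, a log2FC of 0.04 (SE 0.14, 95% interval -0.29 to 0.38). Cs7g23250, the other member named as component 7, had 401, 435 and 425 reads in Gv and 435, 428 and 500 reads in the controls (log2FC -0.08). Cs3g22760, named as component 3 (Sec6), had 24, 33 and 38 reads in Gv and 36, 35 and 46 reads in the controls (log2FC -0.26). The ranges of the groups overlapped in all 3 genes.

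A further exocyst gene had few reads. Cs6g02470, named Sec15 (the subunit that binds Rab GTPases on the vesicle), had 10, 10 and 11 reads in Gv and 4, 5 and 3 reads in the controls. That is 1.78 ± 0.145 RPKM in Gv and 0.664 ± 0.155 RPKM in the controls (SD, n = 3 each). The groups did not overlap, and unlike *Exo70I* the level in Gv 3 was 1.14 times the mean of the other Gv libraries. The reads covered only 4.89%, 5.05% and 5.05% of the listed length in Gv and 8.26%, 4.13% and 5.12% in the controls, so they come from a small stretch and need not stand for the whole gene. It fell under the filter. With no filter its log2FC was 1.38 (SE 0.43, adjusted p = 0.752, edgeR), so it was not called. This gene and the other members under the filter that are named with values, except Cs4g02350, were picked after their values were seen.

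The KEGG column names 15 genes as component 7, of which the text rule had taken Cs3g16120 and Cs7g23250. This wider Exo70 list was likewise drawn up after the files were seen. *Exo70I* made up 1.21%, 1.49% and 16.7% of the summed Exo70 RPKM in Gv libraries 1, 2 and 3, against 0.0454%, 0% and 0% in the controls. It ranked 10, 10 and 3 of 15 in Gv, and 14, 15 and 15 of 15 in the controls. These shares and ranks, like every order of genes by RPKM given here, rest on the listed lengths, which may include introns and would then understate genes with long introns. Without *Exo70I*, 12 of the other 14 genes were tested and 0 were called by edgeR with or without the block. Over all genes tested, 0.995% were called with the block and 0% without. Of the 12 genes 1, Cs6g13780, had an unadjusted p under 0.05 without the block, as 4.57% of all genes had. The median log2FC of the 12 genes was 0.00, with a range of -0.27 to 1.68.

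The highest Exo70 gene, Cs8g20880, averaged 62.4 ± 19.7 RPKM in Gv and 62.3 ± 28.2 RPKM in the controls (SD, n = 3 each). Cs6g13780 was the only other Exo70 gene whose groups did not overlap, where 5.17% of all genes tested lay wholly above the controls. It had 23, 16 and 40 reads in Gv and 12, 10 and 3 reads in the controls. Its log2FC was 1.68 (SE 0.58), with an unadjusted p of 0.024 and an adjusted p of 0.869 by edgeR, and 0.514 with the block. Cs8g17810 had 603, 753 and 410 reads in Gv and 304, 738 and 30 reads in the controls. Control 3 was far below the rest there, and the log2FC of 0.73 had an SE of 0.91. With the block the log2FC was 1.35, with an adjusted p of 0.67.

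**Figure D2:**
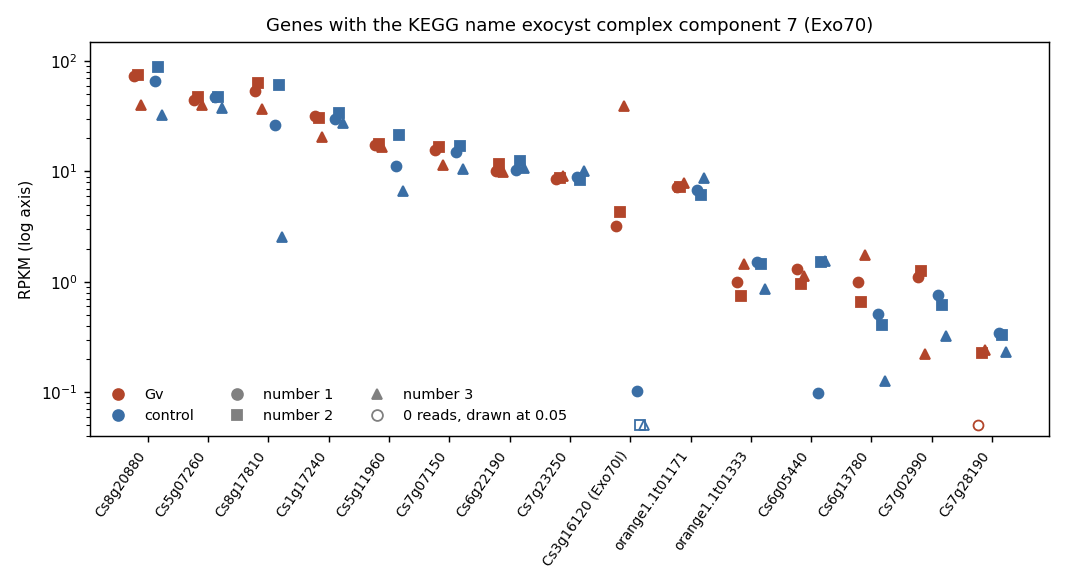
RPKM on a log axis of the 15 genes whose KEGG name is exocyst complex component 7, ordered by mean level, with Gv (red) left of control (blue) in each column. Circles, squares and triangles are libraries 1, 2 and 3, and open symbols at 0.05 stand for 0 reads. *Exo70I* lies at 0.102 RPKM or 0 in the controls and is among the 3 highest genes in Gv 3.

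The 43 coat and sorting genes (clathrin, coatomer and VPS) stood as the housekeeping members, and their summed level was close in the 2 groups. Their RPKM summed to 665, 674 and 694 in Gv libraries 1, 2 and 3, against 717, 661 and 692 in the controls. Of these 43 genes 33 were tested, 10 with a log2FC above 0 and 23 below. The median was -0.04 (range -0.28 to 0.38), beside -0.01 over all genes tested. None of the 33 was called by edgeR with or without the block or by DESeq2. At an unadjusted p under 0.05 there were 0 without the block and 1, Cs2g06750, with it. Coat genes that only the KEGG column names are not among the 43. They include the coatomer alpha subunit Cs8g08390 and the clathrin heavy chain Cs7g30890 (log2FC -0.06 and -0.07). The SEC13 genes Cs1g15600 and Cs2g28780 (log2FC -0.05 and -0.23) are also left out.

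A call of 0 does not show that a gene is level, so the 95% intervals were read as well. The interval lay wholly within a 2-fold change either way for 29 of the 33 coat and sorting genes (87.9%), for 68 of the 79 members (86.1%) and for 11081 of all genes tested (68.1%). Among genes averaging at least 100 reads the shares were 27 of 29 coat and sorting genes (93.1%), 59 of 64 members (92.2%) and 81.4% of 9019 genes. The spread over the 6 libraries gave the same order. The ratio of the highest to the lowest library, in TMM-scaled CPM, had a median of 1.38 in the coat and sorting genes, 1.42 in all members and 1.70 in all genes tested. Among genes averaging at least 100 reads these medians lay closer, at 1.36, 1.37 and 1.5. These shares describe the members beside the rest of the genes and carry no test.

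**Figure D3:**
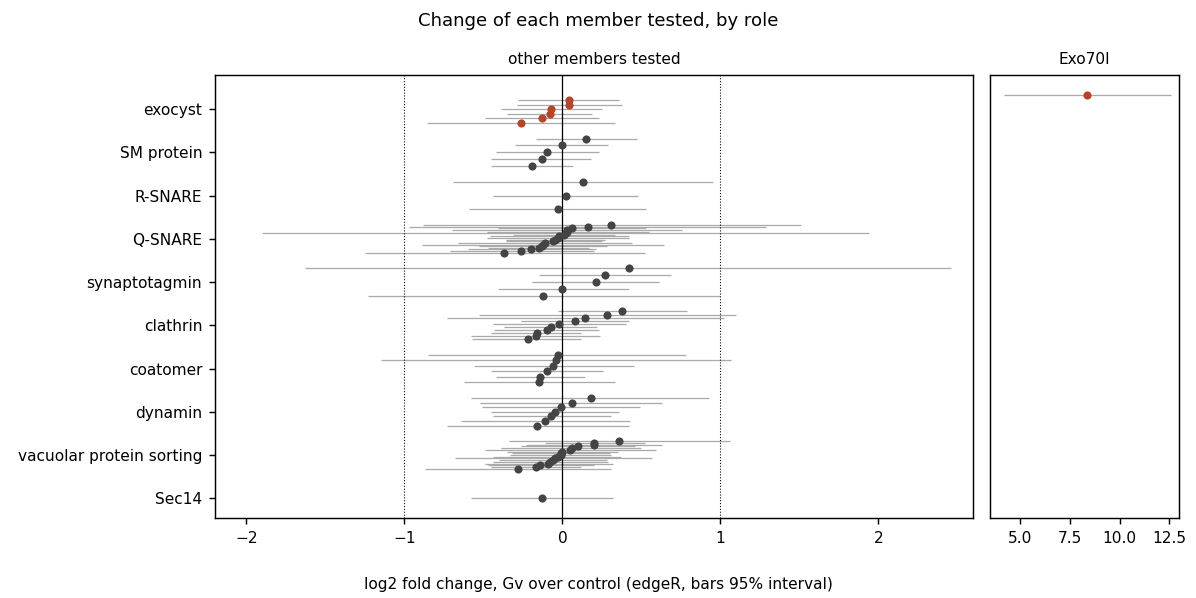
The log2FC (Gv over control, edgeR) of each of the 79 members tested, by role, with 95% intervals as bars. The exocyst is in red, dotted lines mark a 2-fold change either way, and the right panel has its own axis for *Exo70I*, at 8.39. The 78 other members lie between -0.37 and 0.42.

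VPS genes varied little. Their 18 genes summed to 204, 206 and 202 RPKM in Gv, against 210, 202 and 208 RPKM in the controls. All 17 tested members kept the highest library under 2 times the lowest. Cs4g13220, named VPS32 (a filament-forming subunit of the ESCRT-III complex), was the one with the highest RPKM. It had 892, 988 and 767 reads in Gv and 896, 965 and 847 reads in the controls, and the fitted change had a 95% interval of -0.35 to 0.35.

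None of the VPS genes was called. Cs2g06750, named VPS28 (ESCRT-I), had the lowest log2FC of them, with 388, 381 and 239 reads in Gv and 442, 483 and 326 reads in the controls. Each Gv library was below the control of the same number, the log2FC was -0.28 (SE 0.25), and the adjusted p was 0.514 with the replicate block. Cs8g15360, named VPS41 (a subunit of the HOPS complex that tethers membranes to the vacuole), had 431, 400 and 423 reads in Gv and 456, 486 and 501 reads in the controls (log2FC -0.17, SE 0.12). The groups did not overlap, and the change was not called. Positive values were fitted for Cs1g08230 (VPS20, ESCRT-III) and Cs2g19640 (VPS11, HOPS), each with a log2FC of 0.20, picked after their values were seen. The groups of both genes overlapped in TMM-scaled CPM. In RPKM those of Cs1g08230 barely parted, with Gv 3 at 8.61 and control 1 at 8.59. Cs5g18900, named VPS9A (which activates Rab5 GTPases), had the highest log2FC of the VPS genes tested. It had 19, 22 and 23 reads in Gv and 21, 12 and 18 reads in the controls, a log2FC of 0.36 (SE 0.29) with overlapping groups.

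Clathrin forms the outer cage of vesicles at the plasma membrane and the trans-Golgi network. The 18 clathrin-named genes summed to 357, 355 and 336 RPKM in Gv, against 376, 343 and 336 RPKM in the controls. Cs7g05500, an assembly protein and the clathrin-named gene with the highest RPKM, had 927, 977 and 995 reads in Gv and 1223, 1193 and 920 reads in the controls (log2FC -0.17, SE 0.17). Cs2g06330, named clathrin light chain 1, had 723, 809 and 918 reads in Gv and 953, 941 and 1038 reads in the controls (log2FC -0.22, SE 0.14). In TMM-scaled CPM the Gv libraries of this light chain all lay below the controls, but barely, with Gv 3 at 209 and control 2 at 210. In RPKM the groups overlapped, with Gv 3 at 69.1 and control 2 at 65.3. The change was not called.

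Cs5g18470, another assembly protein, was the only tested member besides *Exo70I* with every Gv library above every control in TMM-scaled CPM. It had 53, 62 and 57 reads in Gv and 42, 43 and 50 reads in the controls. The log2FC was 0.38 (SE 0.17), with an unadjusted p of 0.0642 and an adjusted p of 1.00 by edgeR. Over the tested members, 2 of 79 lay wholly above the controls and 4 wholly below, where 5.17% and 3.99% of all genes tested did so. With CPM scaled to reads on genes alone, 4 members lay wholly above and 3 wholly below. The share over all genes was not taken on that scale. In RPKM the synaptotagmin Cs7g26830 and the VPS gene Cs1g08230 also lay wholly above the controls.

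Of the 18 clathrin-named genes 8 had too few reads for the test. Summed over the libraries, 5 of them had more reads in Gv and 3 had fewer, and in the edgeR fit with no filter their adjusted p ranged from 0.705 to 0.999. Cs2g17770, a clathrin assembly protein, had 7, 12 and 67 reads in Gv and 0, 0 and 4 reads in the controls. The pooled reads gave a ratio of 22.0 (95% counting interval 8.29 to 82.6). As in *Exo70I*, Gv 3 was highest, at 7.37 times the mean of Gv 1 and Gv 2, and library 3 was the only control with reads. In the fit with no filter its log2FC was 4.35 (SE 1.30, adjusted p = 0.705, edgeR).

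The assembly protein orange1.1t01639 had 3, 9 and 20 reads in Gv and 3, 1 and 0 reads in the controls. Its lowest Gv library and highest control both had 3 reads, and in CPM these were 0.696 and 0.665, so the groups barely parted. The pooled ratio was 8.19 (95% counting interval 2.90 to 31.9), and the adjusted p with no filter was 0.888. Cs4g02350 had 2, 1 and 0 reads in Gv, against none in the controls, which is at the floor of 3 counts over the group, so no fold is given. Counting intervals cover counting error only and not the spread between libraries.

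Of the 20 members under the filter, 3 lay wholly above the controls in CPM (Cs2g17770, orange1.1t01639 and Cs6g02470) and 0 wholly below. Of all 6308 genes under the filter, 5.80% lay wholly above and 2.84% wholly below. The same 3 members were those with an unadjusted p under 0.05 in the edgeR fit with no filter, as 4.25% of these genes were, and none was called. The other 17 overlapped. Among these, Cs3g26350, named extended synaptotagmin-3 (extended synaptotagmins bridge the endoplasmic reticulum and the plasma membrane), had 0, 2 and 13 reads in Gv and 0, 1 and 0 reads in the controls. Gv 3 held 13 of its 15 Gv reads.

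The coatomer coats vesicles that return from the Golgi to the endoplasmic reticulum. The 7 coatomer members summed to 104, 113 and 156 RPKM in Gv, against 131, 116 and 148 RPKM in the controls, highest in library 3 of both groups. All 6 tested subunits had a log2FC slightly below 0, from -0.15 to -0.03, and none was called. The alpha subunit Cs8g08390, which only the KEGG column names, lies outside the rule. It averaged 60 RPKM over the 6 libraries (log2FC -0.06, SE 0.19). Cs8g06490, the gamma subunit and the coatomer member with the highest RPKM, had 737, 942 and 1233 reads in Gv and 1037, 931 and 1137 reads in the controls (log2FC -0.06, SE 0.21). Cs2g11320, the delta subunit, had 552, 579 and 557 reads in Gv and 674, 620 and 609 reads in the controls. In CPM its Gv libraries all lay below the controls, with a log2FC of -0.14 (SE 0.12). Cs7g07180, a beta subunit picked after its values were seen, had 426, 604 and 1009 reads in Gv and 611, 605 and 931 reads in the controls, and it too was highest in library 3 of both groups.

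**Figure D4:**
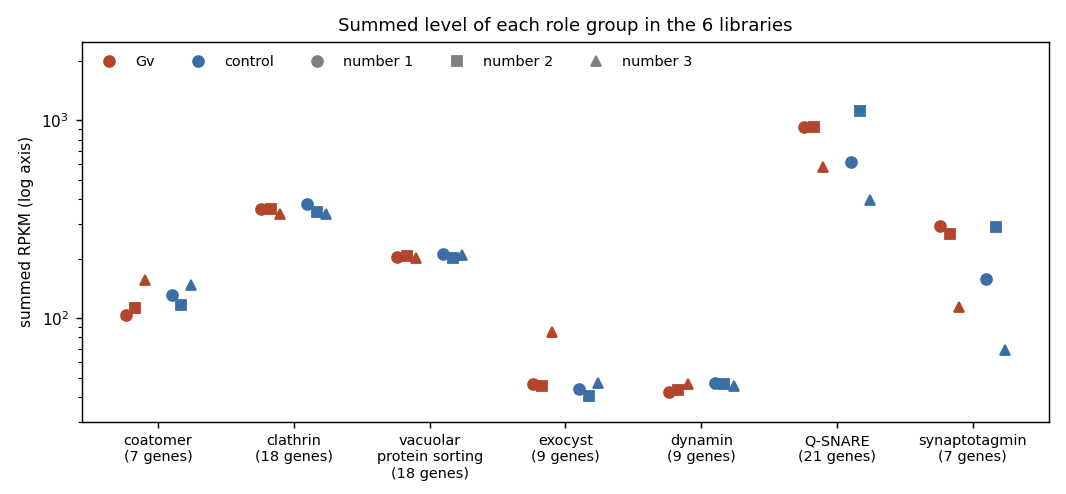
Summed RPKM (log axis) of 7 role groups in each library, Gv (red) left of control (blue), with circles, squares and triangles for libraries 1, 2 and 3. The sums hold members only. The clathrin, VPS and dynamin sums are close in all libraries. The sum of the 9 exocyst members is highest in Gv 3 (85.1 RPKM). The Q-SNARE and synaptotagmin sums are lowest in library 3 of both groups.

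Dynamins and SM proteins showed small changes, none of them called. The 9 dynamin genes summed to 42.2, 43.6 and 46.7 RPKM in Gv, against 47.1, 46.7 and 45.6 RPKM in the controls. Cs1g02800, dynamin-related protein 1E, of a family that acts at the plant cell plate and in endocytosis, had 425, 464 and 332 reads in Gv and 516, 542 and 326 reads in the controls (log2FC -0.16, SE 0.24). Cs8g01600 is named SLY1, an SM protein that in yeast serves fusion between the endoplasmic reticulum and the Golgi. It had 333, 339 and 322 reads in Gv and 400, 382 and 379 reads in the controls. Its Gv libraries all lay below the controls, by a log2FC of -0.19 (SE 0.11) that was not called. The Sec14 gene Cs8g07440, of a family of lipid transfer proteins, had 1216, 1341 and 1588 reads in Gv and 1567, 1286 and 1803 reads in the controls (log2FC -0.13).

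The 3 members named as R-SNAREs, which sit on the vesicle, differed little. Cs7g05630, a vesicle-associated membrane protein, had 395, 426 and 379 reads in Gv and 465, 497 and 283 reads in the controls (log2FC -0.03, SE 0.23). Cs5g28140, named VAMP726, a plant exocytotic R-SNARE class, had 297, 334 and 289 reads in Gv and 327, 378 and 147 reads in the controls. Control 3 was the lowest library, the log2FC was 0.13, and its 95% interval was -0.69 to 0.95. This gene was picked for its class after its values were seen. The KEGG column names further R-SNAREs outside the rule. Among them, Cs7g20310 and Cs9g04490 (vesicle-associated membrane protein 72) had a log2FC of 0.01 and -0.04. Cs2g10690 (vesicle-associated membrane protein 7) had a log2FC of 0.14.

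Q-SNAREs, which include the syntaxins on the target membrane, had a summed level that moved between libraries. Their 21 genes summed to 929, 931 and 582 RPKM in Gv, against 619, 1115 and 394 RPKM in the controls. Of the 18 tested, 7 had a log2FC above 0 and 11 below, and 0 were called in either fit. Cs5g33650, a syntaxin with 14, 21 and 10 reads in Gv and 23, 22 and 14 reads in the controls, had the lowest log2FC of all tested members, -0.37 (SE 0.37). Cs4g20200, named syntaxin-32 (a Golgi syntaxin in *Arabidopsis thaliana*), had 163, 169 and 126 reads in Gv and 196, 209 and 153 reads in the controls (log2FC -0.26). Cs6g04430, named syntaxin-71, had 108, 143 and 148 reads in Gv and 174, 148 and 145 reads in the controls (log2FC -0.20).

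In a few members the level varied with the library number. The 7 synaptotagmin genes summed to 292, 265 and 114 RPKM in Gv libraries 1, 2 and 3, against 157, 288 and 68.9 RPKM in the controls, and 1 of them led these sums. That gene, orange1.1t00345, had 5240, 4857 and 1342 reads in Gv libraries 1, 2 and 3, and 2473, 5632 and 543 reads in the controls. Synaptotagmins in plants are membrane proteins that act at contact sites and in plasma membrane repair. Library 3 was lowest in both groups, below the mean of libraries 1 and 2 by 1.88 on the log2 scale in Gv and by 2.84 in the controls. Its log2FC between Gv and control was 0.42, the largest of the tested members after *Exo70I*, with an SE of 0.85, and the groups overlapped. It was 1.36 without control 2 and -0.07 without control 3.

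The syntaxin Cs6g13590 behaved likewise, with 1992, 2082 and 527 reads in Gv and 1265, 2945 and 361 reads in the controls (log2FC 0.02, SE 0.80). Cs6g13820, named syntaxin-24-like and the member with the highest RPKM, had 3546, 3816 and 2212 reads in Gv and 1971, 4570 and 1265 reads in the controls (log2FC 0.31, SE 0.50). The syntaxin Cs5g26090, with 76, 91 and 44 reads in Gv and 83, 81 and 27 reads in the controls, and clathrin light chain 2 (Cs6g08210), with 673, 563 and 301 reads in Gv and 492, 491 and 307 reads in the controls, were also lowest in library 3. Between the groups, their log2FC values were 0.16 (SE 0.47) and 0.28 (SE 0.34).

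Few members departed that far. Library 3 departed at least 2-fold from libraries 1 and 2 in both groups for 2 of 74 members averaging at least 10 CPM (2.70%), the synaptotagmin and Cs6g13590, and for 732 of 12274 genes (5.96%). What sets the number 3 libraries apart is not stated in the labels. Without them, 6 of the 79 members had an unadjusted p under 0.05, where 11.5% of genes did, and *Exo70I* was the only member called. Higher in Gv were *Exo70I* and the clathrin assembly protein Cs1g20100 (log2FC 0.58), where 5.96% of genes were. Lower were the dynamins Cs1g02800 (log2FC -0.25) and Cs2g17490 (log2FC -0.35), the clathrin light chain Cs2g06330 (log2FC -0.30) and the assembly protein Cs7g05500 (log2FC -0.34), where 5.54% of genes were. Cs1g20100 and Cs2g17490 were picked after their values were seen.

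**Figure D5:**
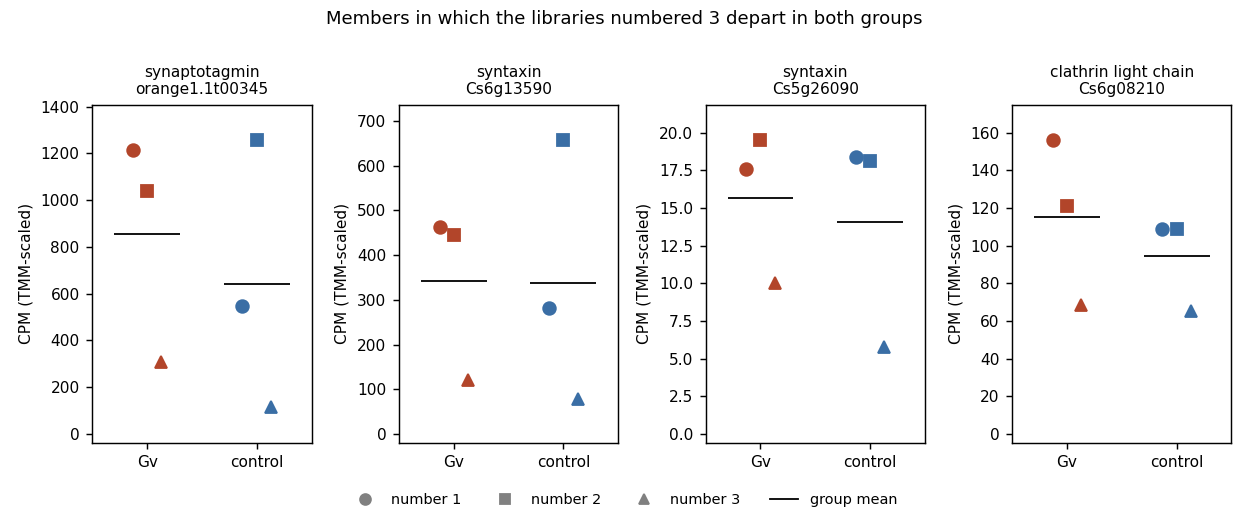
CPM (TMM-scaled) of the 4 members whose libraries numbered 3 departed most in both groups, Gv at left and control at right, with circles, squares and triangles for libraries 1, 2 and 3 and lines for group means. The triangle is the lowest point in both groups of every panel, and the groups overlap.

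Other trafficking genes also showed small changes. A separate list of 44 genes outside the rule, named as Rab GTPases, ARF GTPases, adaptor complexes, COPII coat proteins, TRAPP tethers or ESCRT-III, had 39 genes tested. None was called higher or lower with or without the block, 0 had an unadjusted p under 0.05 without it, and the median log2FC was -0.06 (range -0.31 to 0.47). The 95% interval lay within a 2-fold change for 37 of the 39. A list of 51 genes that carried the rule's words only in the KEGG column was drawn up after the data were seen. It takes in the Exo70 genes outside the rule that are described above, so it is not separate from them. Of these 44 were tested, and edgeR called 0 with or without the block. Their median log2FC was -0.03 (range -0.40 to 1.68), and the interval lay within a 2-fold change for 35. At an unadjusted p under 0.05 without the block there was 1, where 4.57% of all genes were. That gene and the top of the range were again the Exo70 gene Cs6g13780.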

How the data were processed

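Lateral roots of 3 Gv and 3 control samples were sequenced after poly(A) selection. With SOAPaligner/SOAP2 the authors placed the reads on the genome of *Citrus sinensis*, and they deposited, per gene and library, the count of uniquely aligned reads, not normalized, the RPKM, the percent of the gene covered and the gene length. The annotation version and whether listed lengths include introns are not given in the sources used here. Some deeply read genes stayed far from full coverage (Cs8g06490 at 53.1% with a mean of 1003 reads, Cs1g14600 at 39.0% with 1173), while Cs3g16120 reached 94.3% with 74.7, so RPKM may not be comparable between genes. A gene not listed for a library was given 0 reads. Genes with near-identical copies may share or lose reads in unique alignment. Members and lists were chosen with earlier results of these data known. No promoter or protein sequence was used here.

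The count test was that of edgeR 4.0.16 under R 4.3.3 (filterByExpr, TMM, quasi-likelihood, Gv against control, Benjamini-Hochberg over 16281 genes), and standard errors were derived from the F value. The study used NOISeq, which was not run here. Replicate numbers were taken to pair the libraries, since the deviations of same-numbered Gv and control libraries from their group means correlated across genes by 0.357, 0.481 and 0.613. Gv 1 correlated more with control 2 (0.429) than with control 1, and Gv 2 with control 1 by 0.272, so the numbers set library 3 apart and do not separate 1 from 2. The common coefficient of variation was 29.9% without and 16.7% with the block. No pair of libraries agreed within sampling noise (chi-square per degree of freedom of at least 4.24). Alternatives were the block, DESeq2 1.42.0, library totals, upper-quartile factors, no fold limit, no filter, a filter at a mean of 10 reads, a member list without Sec14 (97 genes), each library left out, and, added after the data were seen, both libraries numbered 3 left out and the members with KEGG-named genes. Members wholly above or below the controls were also counted in CPM scaled to reads on genes alone. Named were *Exo70I*, members called by any fit, the 6 largest and 6 smallest log2 fold changes, the member with the highest RPKM of each role, members with 3 or more reads in a group and 0 in the other, and the 4 that departed most in libraries numbered 3. The others named were chosen after their values were seen.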

Additional observations from a re-analysis of the deposited data

How the results depend on the processing

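The replicate block, which pairs libraries of the same number, gave 162 calls over all genes and 1 member, *Exo70I*, whose log2 fold change was 8.35. DESeq2 gave 193 calls over all genes. With CPM scaled to reads on genes alone, 4 members lay wholly above the controls and 3 wholly below. TMM-scaled CPM gave 2 and 4. Without both libraries numbered 3 there were 205 calls over all genes and 1 member, with *Exo70I* at 5.89. Leaving out each library in turn gave between 0 and 69 calls over all genes and between 0 and 1 members, a median of the members between -0.085 and -0.017, and *Exo70I* between 6.36 and 10.25.

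Of 273 values of 21 single members, 252 kept their side of the threshold and their direction, and 21 in 8 uncalled members changed sign. They were, for Cs4g13220, 0.01 with library totals and 0.02 without both libraries numbered 3. Cs7g05630 was 0.02 with the block. Without both libraries numbered 3, Cs6g13590 was -0.05 and orange1.1t00418 -0.07. Over the fits with 1 library left out, the log2FC ranged from -0.06 to 0.08 for Cs4g13220, from -0.21 to 0.40 for Cs5g26090, from -0.44 to 0.94 for Cs6g13590, from -0.02 to 1.02 for Cs6g13820, from -0.25 to 0.13 for Cs7g05630, from -0.28 to 0.09 for Cs8g06490, from -0.07 to 1.36 for orange1.1t00345 and from -0.01 to 0.12 for orange1.1t00418. The cause was not tested. Members with few reads and those in which library 3 departs are limited by these 3 libraries per group.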
